A study of Homo sapiens with 18 samples.

Results

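The genes described here encode the receptors for the inflammatory cytokine TNF and the proteins that carry or restrain their signal. They are TNFRSF1A, TNFRSF1B, TRAF1, TRAF2, BIRC2, BIRC3, RIPK1, TNFAIP3, TNIP1 and TNFAIP2. A peak, meaning a stretch of open chromatin in the deposited table (hg38), was taken as a member when it overlapped the body of 1 of these 10 genes or the 10 kb upstream of it. Peaks were taken by position alone, but the genes were chosen with earlier results of these data known. The position rule gave 110 of 334857 peaks, and no peak belonged to more than 1 of the 10 genes.

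Accessibility was measured by bulk ATAC-seq, in which a transposase cuts and tags open DNA, in 18 libraries of the human cell line Ccd18-Co, which consists of fibroblasts from the colon. The 6 unstimulated libraries received no cytokines. The 6 DMSO and 6 belinostat libraries came from cells given 3 pulses of TNF, OSM and IL-17A at 10 ng/ml each with IL-1β at 0.1 ng/ml. A pulse was 72 h with cytokines and 96 h of recovery, and 1 week of rest followed the last one. The cells then received DMSO or belinostat, an inhibitor of histone deacetylases, at 250 nM for 5 days and were collected 2 weeks later, so no library was taken while cytokine or drug was present. These doses follow the sample labels, and the study's methods differ from them on the belinostat and IL-1β concentrations. All libraries share 1 cell line, and no source used here states that replicates were separate cultures, so p-values measure the spread between these libraries, which may be technical.

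TNF receptor 1 (TNFRSF1A) is found on most cells and, once bound by TNF, recruits TRAF2, the ubiquitin ligases BIRC2 and BIRC3 and the kinase RIPK1, which together switch on NF-kappaB. TNF receptor 2 (TNFRSF1B) is more restricted, lacks a death domain and signals through TRAF2 and TRAF1. NF-kappaB in turn induces several of its own brakes, among them TNFAIP3 (A20), which edits ubiquitin chains on RIPK1, and its partner TNIP1, so that the pathway carries its own feedback.

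The sequences shown first are the middle of 4 of the 6 member peaks that differed between belinostat and DMSO, because the drug comparison rests on such peaks. They are the reference hg38 forward strand, 5′ to 3′, and each name gives the distance from the gene start to the middle of the whole peak. Capitals mark a match, on either strand, to 1 of 4 short words: AP-1 (TGANTCA), TEAD (GGAATG), C/EBP (TTGCNNAA) and the NF-kappaB word.
TNFRSF1B intron peak, 17425 bp, chr1:12184317-12184516: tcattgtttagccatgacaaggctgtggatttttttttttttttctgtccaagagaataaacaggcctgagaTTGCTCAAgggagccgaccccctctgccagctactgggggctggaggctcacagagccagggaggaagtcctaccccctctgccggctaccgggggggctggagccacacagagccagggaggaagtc
TNFRSF1B intron peak, 11221 bp, chr1:12178113-12178312: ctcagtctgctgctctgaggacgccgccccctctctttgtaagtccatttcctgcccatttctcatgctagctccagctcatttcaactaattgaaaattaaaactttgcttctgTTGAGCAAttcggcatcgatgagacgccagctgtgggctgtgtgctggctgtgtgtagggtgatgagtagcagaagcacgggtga
RIPK1 peak, 20438 bp, chr6:3088833-3089032: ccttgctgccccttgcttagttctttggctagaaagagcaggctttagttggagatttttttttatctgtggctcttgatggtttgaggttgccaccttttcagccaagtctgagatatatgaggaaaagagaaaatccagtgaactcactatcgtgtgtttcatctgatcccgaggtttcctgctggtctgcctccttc
TNIP1 intron peak, 8487 bp, chr5:151072447-151072646: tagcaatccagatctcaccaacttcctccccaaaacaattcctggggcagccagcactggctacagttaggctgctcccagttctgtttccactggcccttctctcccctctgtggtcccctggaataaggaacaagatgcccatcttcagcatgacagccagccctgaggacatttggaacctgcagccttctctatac

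Both TNFRSF1B sequences hold a C/EBP word, and those of RIPK1 and TNIP1 hold none of the 4. The next pair are the peaks with the smallest p for opening and for closing between DMSO and unstimulated cells, cut where needed to leave out untranslated exons. The TNFAIP2 sequence holds an AP-1 word.
TNFAIP2 upstream peak, 7512 bp, chr14:103115850-103116049: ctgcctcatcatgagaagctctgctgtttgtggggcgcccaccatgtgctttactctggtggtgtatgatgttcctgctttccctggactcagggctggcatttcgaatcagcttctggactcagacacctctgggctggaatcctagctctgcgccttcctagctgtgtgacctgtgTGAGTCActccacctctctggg
TRAF2 start peak, 43 bp, chr9:136886374-136886515: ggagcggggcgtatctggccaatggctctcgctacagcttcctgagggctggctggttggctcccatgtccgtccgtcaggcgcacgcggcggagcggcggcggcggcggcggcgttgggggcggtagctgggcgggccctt

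Last are the parts of RefSeq promoters (GRCh38.p14, forward strand) that hold the NF-kappaB word, in capitals, shown because these genes are known NF-kappaB targets. Each holds 2 such words.
BIRC3 promoter, chr11:102317234-102317483: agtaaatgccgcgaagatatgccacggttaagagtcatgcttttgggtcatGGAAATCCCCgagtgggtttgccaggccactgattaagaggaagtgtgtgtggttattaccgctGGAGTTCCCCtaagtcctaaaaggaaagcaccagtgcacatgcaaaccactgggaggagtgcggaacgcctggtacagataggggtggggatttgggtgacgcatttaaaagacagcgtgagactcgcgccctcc
TNFAIP3 promoter, chr6:137867009-137867213: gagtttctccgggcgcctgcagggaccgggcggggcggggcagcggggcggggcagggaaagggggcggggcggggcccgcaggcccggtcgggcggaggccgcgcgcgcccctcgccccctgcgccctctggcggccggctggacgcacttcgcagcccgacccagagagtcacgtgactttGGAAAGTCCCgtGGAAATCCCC

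RefSeq promoters matched all 10 members (16 entries). The NF-kappaB word was present in at least 1 entry of 3 genes, BIRC3, TNFAIP3 and TNIP1. Of all 35116 promoter entries 5.91% held it, so a count of genes stands here beside a share of entries, and these are not like for like. The TNIP1 word lies outside the stretch that could be shown. In the middle 200 bp of the 110 member peaks the NF-kappaB word occurred in 10 (9.09%), against 3.08% of all peaks, the AP-1 word in 11 (10.0% against 14.1%), the TEAD word in 13 (11.8% against 15.5%) and the C/EBP word in 11 (10.0% against 9.72%). These matches are descriptions of letters and not of binding. Of the 10 peaks with an NF-kappaB word, 1 closed and 0 opened between DMSO and unstimulated cells and 0 changed between belinostat and DMSO (edgeR, 3 and 0 at an unadjusted p under 0.05). Over all peaks 9.73% closed and 9.51% opened in the first comparison and 1.75% and 0.607% in the second. These shares are at an adjusted p under 0.05, and those at an unadjusted p were not counted.

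Library totals over all peaks were 7077321 to 11352032 counts in unstimulated, 6488975 to 8066642 in DMSO and 4661678 to 6370845 in belinostat libraries, and each belinostat library was shallower than each DMSO library (exact permutation test over libraries, two-sided p = 0.00216, adjusted over 6 tests 0.00648). The percentage of each library held by the 10000 peaks strongest on average also moved with the groups, from 35.4 to 39.0% in unstimulated, over 31.8 to 35.2% in DMSO, to 28.4 to 34.5% in belinostat libraries. The part of depth and of this share in the results below was not tested. Fibroblast markers had a peak at their start in 7 of 7 cases (7.04 to 52.5 CPM per kb), against 0 of 4 immune, 2 of 3 epithelial (0 to 4.68) and 1 of 3 endothelial markers (0 to 5.09).

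The 10 loci differed widely in how much open chromatin they held. TRAF2 had 24 peaks, TNIP1 18, RIPK1 15, TRAF1 13, TNFRSF1B 12, TNFRSF1A and TNFAIP2 9 each, BIRC3 5, BIRC2 3 and TNFAIP3 2. By position, 9 peaks covered the canonical start of their gene, 52 were intronic, 33 overlapped exons of the canonical or another isoform and 16 lay upstream. TRAF1 had no peak on its canonical start. A peak lay 667 bp into the gene, and a stronger one 2096 bp upstream, on an exon of another isoform, held 10.7 CPM per kb ± 1.64 in unstimulated cells. The TRAF1 peaks 9867 and 10872 bp upstream also fall within C5, and 1 upstream peak of TNFRSF1A also falls in SCNN1A, so these cannot be assigned to 1 gene.

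Per kilobase, start peaks in unstimulated cells were strongest at TRAF2, with 43.9 CPM per kb ± 4.82 (SD, n = 6), followed by RIPK1 (38.7 ± 2.64) and TNIP1 (36.4 ± 3.39). Neighbours among these 3 overlapped in their library ranges. TNFRSF1A (26.4 ± 2.04) and TNFAIP3 (23.0 ± 1.41) came next, also overlapping each other, and then BIRC2 (16.2 ± 1.88) and TNFAIP2 (14.8 ± 2.65), which overlapped. The NF-kappaB target BIRC3 had 7.93 ± 1.52 CPM per kb and TNFRSF1B, the more restricted receptor, 5.23 ± 0.542, with overlapping ranges. Per kilobase of peak, the start of TNF receptor 1 was thus several times more accessible than that of TNF receptor 2 in this fibroblast line, with 23.5 to 28.3 against 4.62 to 6.18 CPM per kb. This gap depends on peak width, 607 bp at TNFRSF1A and 1239 bp at TNFRSF1B. Not divided by width, the means were 4.02 and 2.75 log2 CPM.

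The first comparison, DMSO against unstimulated, asks what past cytokine exposure left behind. The labels give no vehicle treatment or culture times for the unstimulated libraries. Cytokine exposure therefore cannot be told apart from vehicle or handling in it. Of 110 member peaks, 4 opened, against a background of 9.51% of all peaks, and 19 closed, against 9.73% (edgeR, adjusted p under 0.05 over all peaks). The members' shares were 3.64% and 17.3%, and their median log2 fold change was -0.006 against 0.13 for all peaks. At gene level, with counts summed over each locus, 0 of 10 loci were higher, against 10.8% of all 19155 protein-coding loci, and 6 were lower, against 62.6% (edgeR, 6 of 10 at an unadjusted p under 0.05). The share of all loci at that unadjusted threshold was not counted. The members' 60.0% lay near that background, and their median of -0.26 equalled the median of all loci. Directions in this comparison depend on the scaling of the libraries: the median of all loci was -0.26 with the scaling used here (TMM, the trimmed mean of M values), -0.043 with library totals, -0.70 with TMM over the weaker peaks and -0.016 with offsets that follow peak strength (loess). With library totals 2 member loci were lower and 1 higher, with loess offsets 0 were lower and 3 higher, and closed member peaks numbered 3 and 0. The 2 member peaks that opened with loess offsets were the TNFRSF1B start peak and a TNFAIP2 peak 7752 bp into the gene, named here after their values were seen. A site open in fewer cells and a site less open in each cell cannot be told apart in bulk libraries. Groups whose library ranges do not overlap are described below, and the share of all loci or peaks without overlap was not counted.

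**Figure D1:**
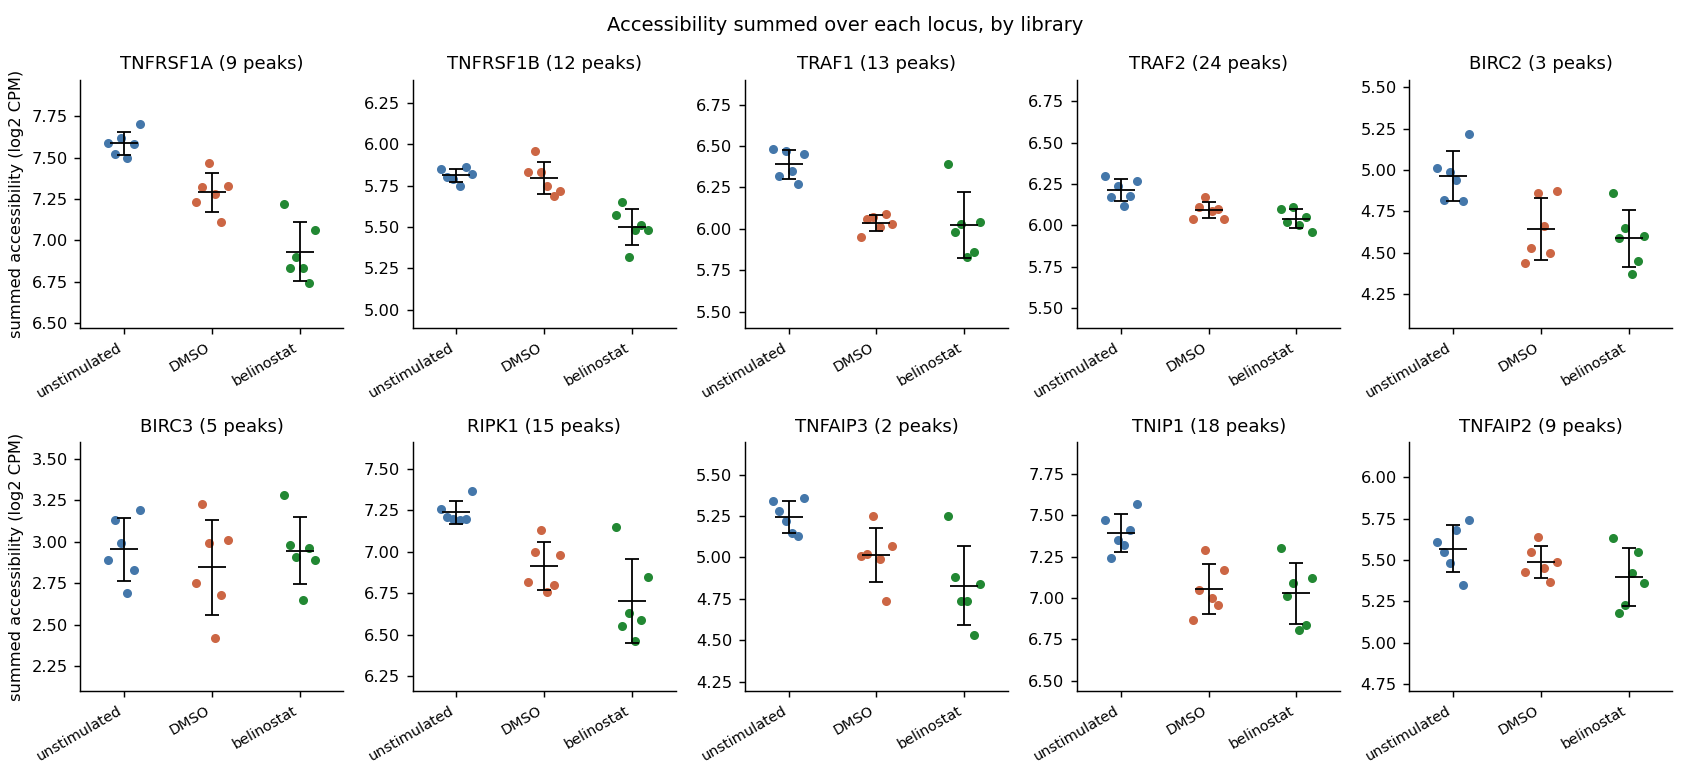
Summed accessibility (log2 CPM, y axis, equal spans in all panels) at the 10 loci, 1 point a library, with the mean and SD of each group as a bar. TNFRSF1A steps down from unstimulated over DMSO to belinostat libraries, TNFRSF1B is lowest in belinostat libraries and BIRC3 overlaps in all groups; the DMSO-unstimulated steps depend on scaling, and they turn upward at TNFRSF1B, TRAF2, TNFAIP3 and TNFAIP2 with loess offsets and at TNFRSF1B, TRAF2, BIRC3 and TNFAIP2 with library totals.

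Of the receptors, the TNFRSF1A locus passed and the TNFRSF1B locus did not, and the difference between them was not tested. The TNFRSF1A locus (chr12:6328757-6342114, minus strand) had a lowest, median and highest log2 CPM of 7.50, 7.58 and 7.70 in unstimulated and 7.11, 7.30 and 7.47 in DMSO libraries. These ranges did not overlap, and the change was -0.29 ± 0.07 (log2 fold change ± SE, edgeR adjusted p = 0.00128), close to the median of all loci. With loess offsets it was -0.00 (edgeR adjusted p = 0.992) and with library totals -0.07 (0.135). The TNFRSF1B locus (chr1:12166991-12209228) ran from 5.75 over 5.81 to 5.86 in unstimulated and from 5.69 over 5.79 to 5.96 in DMSO libraries, overlapping throughout, with a change of -0.01 ± 0.07 (edgeR adjusted p = 0.853). It was higher with library totals (0.20, edgeR adjusted p = 0.00844) and with loess offsets (0.27, 0.00336), so its direction rests on the scaling.

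Within TNFRSF1A 3 of 9 peaks closed, all in introns, against 9.73% of all peaks. The peak 1633 bp into the gene had 3.51, 3.66 and 3.80 in unstimulated and 2.72, 3.14 and 3.30 log2 CPM in DMSO libraries, ranges that did not overlap, and fell by 0.57 ± 0.13 (edgeR adjusted p = 0.00115), the largest fall among the called member peaks, and by 0.26 with loess offsets (0.134). The strongest peak of all 110, 5530 bp into the gene, fell by 0.31 ± 0.10 (edgeR adjusted p = 0.0185) and the one 6256 bp into it by 0.29 ± 0.11 (0.0453), and with loess offsets both had the opposite sign (0.13 and 0.09). Both calls were lost with library totals. The 6256 bp call was also lost without any 1 of 10 libraries (edgeR adjusted p 0.0507 to 0.124), and that at 5530 bp without unstimulated replicate 6 (0.0679) or DMSO replicate 5 (0.0566). The start peak of TNFRSF1A changed by -0.24 ± 0.12 and did not pass (edgeR adjusted p = 0.149). At TNFRSF1B 0 of 12 peaks passed, and the start peak had a change of 0.24 ± 0.14 (edgeR adjusted p = 0.222), which passed with library totals (0.46, 0.00859) and loess offsets (0.52, 0.00557).

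Among the adaptors, the TRAF1 and RIPK1 loci were lower, as were 62.6% of all loci. The TRAF1 locus (chr9:120902393-120929173, minus strand), coding for a TRAF without ligase activity that is itself an NF-kappaB target, had 6.27, 6.40 and 6.48 in unstimulated and 5.95, 6.04 and 6.09 log2 CPM in DMSO libraries. The groups did not overlap, and the change was -0.36 ± 0.08 (edgeR adjusted p = 0.000513), but -0.06 with loess offsets (0.274). With only 3 kb upstream, which leaves out the 2 peaks shared with C5, it was -0.09 (edgeR adjusted p = 0.337), so this call rests on those peaks. Of its 13 peaks 3 closed, against 9.73% of all peaks. Of these 3, 2 are the upstream ones shared with C5, 10872 bp (-0.45 ± 0.10) and 9867 bp away (-0.49 ± 0.13). The third is the peak 2096 bp upstream (-0.43 ± 0.13). RIPK1 (chr6:3063824-3115187), the kinase that scaffolds the receptor complex, had 7.19, 7.20 and 7.37 in unstimulated and 6.76, 6.90 and 7.13 in DMSO libraries, again without overlap. Its change was -0.32 ± 0.09 (edgeR adjusted p = 0.00211) and -0.03 with loess offsets (0.603). Its start peak fell by 0.36 ± 0.11 (edgeR adjusted p = 0.011), and with loess offsets it had the opposite sign (0.03). With the start peak, 4 of 15 RIPK1 peaks closed, against 9.73% of all peaks.

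TRAF2 (chr9:136881912-136926607), the ligase adaptor shared by both receptors, had peaks that changed in both directions. Its start peak had 5.14, 5.28 and 5.52 in unstimulated and 4.72, 4.77 and 5.11 log2 CPM in DMSO libraries, without overlap, and fell by 0.47 ± 0.11 (edgeR adjusted p = 0.00105). A peak 584 bp into the gene fell by 0.52 ± 0.16 (edgeR adjusted p = 0.0123). Of the 4 member peaks that opened, 3 were weak TRAF2 peaks, 33960 bp (1.00 ± 0.32, edgeR adjusted p = 0.0182), 23241 bp (1.07 ± 0.36, 0.0257) and 9760 bp into the gene (1.14 ± 0.44, 0.0495). They held 147, 121 and 81 counts over all 18 libraries, so each rests on few counts a library. All 3 calls were lost with loess offsets and with TMM over the weaker peaks (edgeR adjusted p 0.0976 to 0.249). The 33960 bp call was also lost without unstimulated or DMSO replicate 1, that at 23241 bp with DESeq2 and without unstimulated replicate 2 or 4 or DMSO replicate 2, and that at 9760 bp with DESeq2 and in 10 leave-one-out fits. Summed over the locus the change was -0.12 ± 0.06 and did not pass (edgeR adjusted p = 0.0752), and it was 0.17 with loess offsets (0.0196).

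The neighbouring ligase genes BIRC2 and BIRC3 gave different results. BIRC2 (chr11:102347211-102378670, cIAP1) had 4.81, 4.96 and 5.22 in unstimulated and 4.44, 4.60 and 4.87 log2 CPM in DMSO libraries, overlapping slightly, a change of -0.32 ± 0.09 (edgeR adjusted p = 0.0032, with loess offsets -0.08 and 0.356). BIRC3 (chr11:102317484-102339403, cIAP2), whose promoter holds the NF-kappaB words shown above, had 2.69, 2.94 and 3.19 in unstimulated and 2.42, 2.87 and 3.23 in DMSO libraries. These overlapped, with a change of -0.09 ± 0.14 (edgeR adjusted p = 0.556), and 0 of its 5 peaks passed. The difference between BIRC2 and BIRC3 was not tested, and with 913 counts in all BIRC3 is the least covered locus.

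Of the brakes, the TNFAIP3 locus (chr6:137867214-137883314) had 5.13, 5.25 and 5.36 in unstimulated and 4.74, 5.01 and 5.25 log2 CPM in DMSO libraries, and fell by 0.23 ± 0.09 (edgeR adjusted p = 0.0259). This call was lost without unstimulated replicate 1 or 6 or DMSO replicate 5 (adjusted p 0.0776, 0.0701 and 0.0825) and with DESeq2 (0.0708), and with loess offsets the value was 0.03. Its start peak, which spans the promoter sequence above and also falls in the lncRNA gene WAKMAR2, changed by -0.27 ± 0.11 (edgeR adjusted p = 0.0629). TNIP1 (chr5:151029945-151093577, minus strand), which brings A20 to ubiquitin chains, had 7.24, 7.38 and 7.57 in unstimulated and 6.87, 7.02 and 7.29 in DMSO libraries, slightly overlapping. It fell by 0.34 ± 0.08 (edgeR adjusted p = 0.000938, with loess offsets -0.05 and 0.321). Of its 18 peaks 5 closed, against 9.73% of all peaks. Among them were the start peak (-0.39 ± 0.11) and the intron peak 8487 bp into the gene (-0.50 ± 0.17).

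TNFAIP2 (chr14:103121476-103137439), a TNF-induced gene named with the others although its protein acts outside the receptor complex, did not pass as a locus (-0.08 ± 0.08, edgeR adjusted p = 0.346, and 0.19 with loess offsets). It held the member peak with the smallest p for opening, 7512 bp upstream. That peak had -0.31, 0.49 and 0.64 in unstimulated, 0.83, 1.11 and 1.44 in DMSO and -0.17, 0.53 and 1.16 log2 CPM in belinostat libraries. DMSO and unstimulated libraries did not overlap, and the rise was 0.92 ± 0.27 (edgeR adjusted p = 0.0116, 178 counts over all libraries). The call was lost with loess offsets (0.83, edgeR adjusted p = 0.0579) and with TMM over the weaker peaks (0.49, 0.207). Belinostat libraries overlapped both other groups, with a change from DMSO of -0.66 ± 0.28 that did not pass (edgeR adjusted p = 0.213). An exon peak 13498 bp into TNFAIP2 fell by 0.38 ± 0.13 (edgeR adjusted p = 0.0362), a call lost with library totals, TMM over 10 kb bins, loess offsets, DESeq2 and in 6 leave-one-out fits (0.0502 to 0.11).

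The direction of a member peak in this comparison went with its strength. All 28 member peaks with an average of at least 3 log2 CPM had negative values and 17 closed, while 42 of the 52 under 1 log2 CPM had positive values and 4 opened (limits chosen after the values were seen). All peaks showed the same course. In the strongest of 20 equal bins the median was -0.37 and 13247 of 16743 peaks closed, and in the next 7945 closed. In the weakest the median was 0.79. The closed peaks counted per gene above were not set against peaks of like strength.

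**Figure D2:**
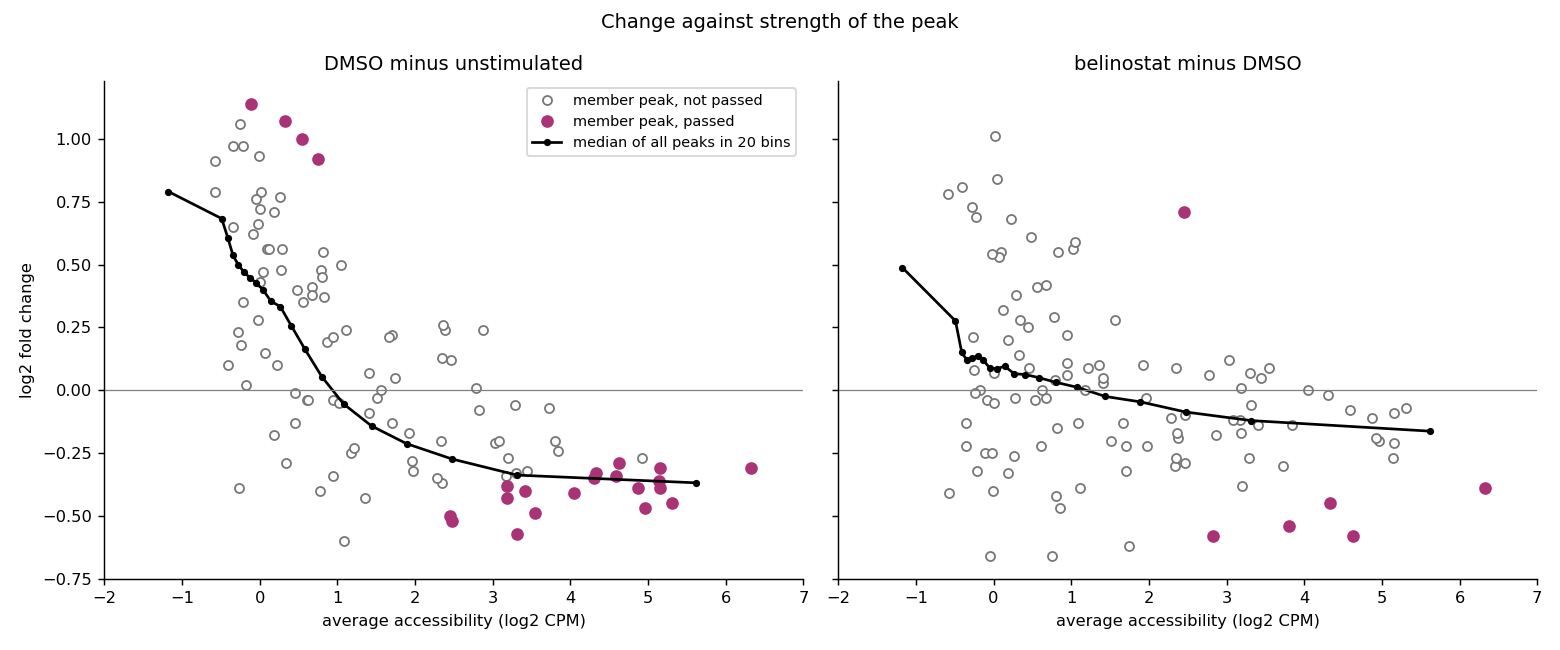
Log2 fold change (y axis) against average log2 CPM (x axis) for the 110 member peaks, filled where edgeR passed, with the median of all peaks in 20 bins of strength drawn at bin midpoints as a line. In DMSO minus unstimulated the members lie along a line that falls from 0.79 to -0.37, a slope that loess offsets take out (with them 2 member peaks opened and 0 closed), and in belinostat minus DMSO 4 receptor intron peaks and 1 RIPK1 peak lie below a flatter line and 1 TNIP1 peak above it.

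The second comparison, belinostat against DMSO, asks what the drug changed in cells with the same cytokine history. Of 110 member peaks 1 opened (0.909%, against 0.607% of all peaks) and 5 closed (4.55%, against 1.75%), and 17 had an unadjusted p under 0.05 (edgeR). The share of all peaks at that unadjusted threshold was not counted. Closing was called mostly in strong peaks: in the strongest of 20 equal bins 1551 of 16743 closed, in the next 1702 and in the weakest 25. Of the 28 member peaks with an average of at least 3 log2 CPM, 4 closed (14.3%). The part of peak strength in the members' share was not tested. Of the 10 loci 0 were higher, against 0.125% of all loci, and 2 were lower, against 2.04%. Both were receptors, TNFRSF1A and TNFRSF1B, and 4 of the 5 closed peaks lay in their introns. The median over the member loci was -0.077 and over all loci -0.081. With TMM over the weaker peaks 0 peaks and 0 loci passed, and with loess offsets 3 peaks closed, 1 opened and 1 locus, TNFRSF1A, was lower.

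The TNFRSF1A locus had 7.11, 7.30 and 7.47 log2 CPM in DMSO and 6.74, 6.87 and 7.22 in belinostat libraries. Only the highest belinostat library reached into the DMSO range, and the change was -0.36 ± 0.07 or 0.78-fold (edgeR adjusted p = 0.00861). It was -0.27 with library totals, -0.23 with loess offsets (edgeR adjusted p = 0.000568) and -0.46 with TMM over the weaker peaks, where it did not pass (0.482). Against unstimulated libraries the locus was at 0.638-fold.

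The TNFRSF1B locus had 5.69, 5.79 and 5.96 in DMSO and 5.32, 5.50 and 5.65 in belinostat libraries, which did not overlap. The change was -0.30 ± 0.07 or 0.813-fold (edgeR adjusted p = 0.0195). It was lost without DMSO replicate 2, 3 or 6 or belinostat replicate 3 (edgeR adjusted p 0.0795, 0.0648, 0.0556 and 0.0727), and with loess offsets (-0.18, 0.126), so it is less firm than that at TNFRSF1A.

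**Figure D3:**
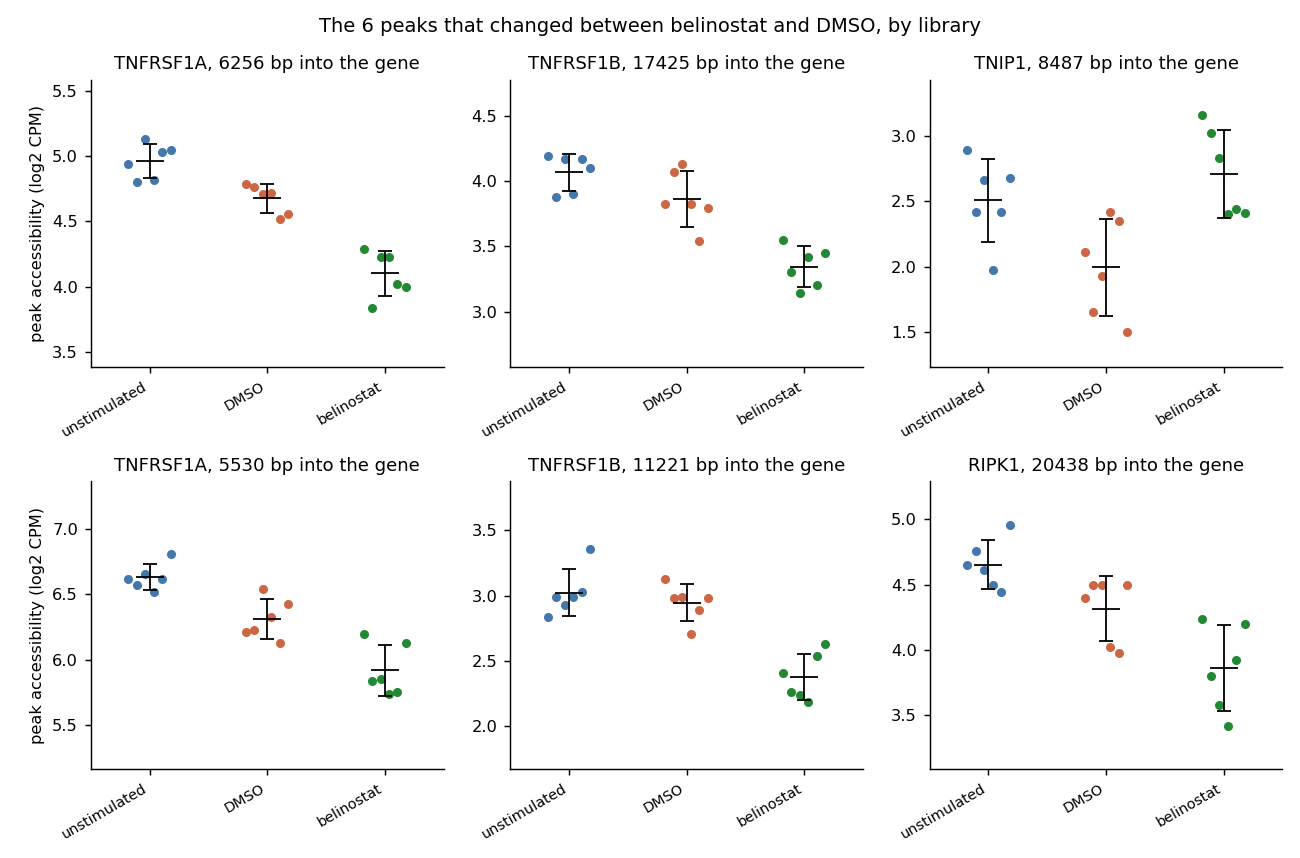
Log2 CPM (y axis, equal spans in all panels) of the 6 member peaks that differed between belinostat and DMSO, 1 point a library, with the mean and SD of each group as a bar. The TNFRSF1A peak at 6256 bp separates all 3 groups (its unstimulated-DMSO step turns with loess offsets), both TNFRSF1B peaks are lowest in belinostat libraries, and the TNIP1 peak is lowest in DMSO libraries.

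The change with the smallest p was at the TNFRSF1A intron peak 6256 bp into the gene. It had 4.80, 4.98 and 5.13 log2 CPM in unstimulated, 4.52, 4.71 and 4.79 in DMSO and 3.84, 4.12 and 4.29 in belinostat libraries. No 2 groups overlapped, and in belinostat libraries it was lower than in DMSO libraries, having dropped by 0.58 ± 0.12 (0.67-fold, edgeR adjusted p = 0.000351, with loess offsets -0.40 and 0.000461). Its neighbour at 5530 bp had 6.13, 6.28 and 6.54 in DMSO and 5.74, 5.85 and 6.20 in belinostat libraries, slightly overlapping. It fell by 0.39 ± 0.10 (edgeR adjusted p = 0.0129), a call lost without DMSO replicate 3 or 6 (0.0701 and 0.0644). The start peak of TNFRSF1A had 3.45, 3.82 and 4.04 in DMSO and 3.45, 3.56 and 4.12 in belinostat libraries and did not pass (-0.14 ± 0.13, edgeR adjusted p = 0.606). A weaker peak 3450 bp upstream had the lowest value at this gene, -0.62 ± 0.21, and did not pass either (edgeR adjusted p = 0.0882). The difference between the intron peaks and the start was not tested.

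At TNFRSF1B the peak 17425 bp into the gene (chr1:12184065-12184768) had 3.54, 3.82 and 4.13 in DMSO and 3.14, 3.36 and 3.55 log2 CPM in belinostat libraries, ranges that just touched. It fell by 0.54 ± 0.13 (0.689-fold, edgeR adjusted p = 0.00597, with loess offsets -0.39 and 0.0135). The peak at 11221 bp (chr1:12177919-12178506) had 2.84, 2.99 and 3.36 in unstimulated, 2.71, 2.98 and 3.13 in DMSO and 2.19, 2.33 and 2.63 in belinostat libraries. Here unstimulated and DMSO libraries overlapped and all belinostat libraries lay below both. Its fall of 0.58 ± 0.16 (edgeR adjusted p = 0.0202) was lost in 5 of the leave-one-out fits (adjusted p 0.0506 to 0.0592) and just so with loess offsets (0.0501). The TNFRSF1B start peak changed by -0.18 ± 0.15 (edgeR adjusted p = 0.572). A weak intron peak 6583 bp into TNFRSF1B had a value of 1.01 ± 0.36 (edgeR adjusted p = 0.121), against the sign of the locus.

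Of the adaptor genes 1 peak passed, a RIPK1 peak 20438 bp into the gene (chr6:3088417-3089448) on an exon of another isoform, which also covers the RNA5SP201 pseudogene. It had 3.98, 4.45 and 4.50 in DMSO and 3.42, 3.86 and 4.24 log2 CPM in belinostat libraries, overlapping, and fell by 0.45 ± 0.12 (edgeR adjusted p = 0.024). The call was lost without DMSO replicate 2, 3 or 6 or belinostat replicate 2, 3 or 4 (adjusted p 0.0643 to 0.112) and with loess offsets (0.0592). As loci, RIPK1 (-0.20 ± 0.09, edgeR adjusted p = 0.195), TRAF1 (-0.01 ± 0.08, 0.965), TRAF2 (-0.05 ± 0.06, 0.645), BIRC2 (-0.07 ± 0.10, 0.7) and BIRC3 (0.08 ± 0.14, 0.758) did not pass. Belinostat replicate 1 had the highest value of its group at every member locus except TNFRSF1B and TRAF2. It also had the group's highest share of counts in the 10000 strongest peaks (34.5%). Without this library RIPK1 (-0.30, edgeR adjusted p = 0.00581) and TNFAIP3 (-0.28, 0.021) passed, making 4 lower loci.

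Among the brakes the TNIP1 intron peak 8487 bp into the gene (chr5:151072120-151072974) was the only member peak that opened. It had 1.97, 2.54 and 2.89 log2 CPM in unstimulated, 1.50, 2.02 and 2.42 in DMSO and 2.40, 2.64 and 3.16 in belinostat libraries. Belinostat and DMSO libraries overlapped by the edges of their ranges, and the rise was 0.71 ± 0.17 (1.63-fold, edgeR adjusted p = 0.00735, with loess offsets 0.79 and 0.000743). After the fall of 0.50 between unstimulated and DMSO it stood at 0.21 ± 0.16 against unstimulated libraries, which did not pass (edgeR adjusted p = 0.352). That value depends on scaling. It passed as higher with library totals (0.51, edgeR adjusted p = 0.00817) and loess offsets (0.54, 0.0141). With TMM over the weaker peaks it was -0.35 and did not pass (0.22). The fall of 0.50 was lost with library totals, TMM over 10 kb bins, loess offsets (-0.25, edgeR adjusted p = 0.388), DESeq2 and without unstimulated replicate 1, 3 or 6 or DMSO replicate 2 or 6, while its sign held. These comparisons share the DMSO libraries, so a low DMSO value moves both. The TNIP1 locus did not pass (-0.02 ± 0.08, edgeR adjusted p = 0.88), and its start peak changed by -0.09 ± 0.11 (0.713). TNFAIP3 (-0.19 ± 0.10, edgeR adjusted p = 0.258) and TNFAIP2 (-0.09 ± 0.08, 0.553) did not pass as loci.

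**Figure D4:**
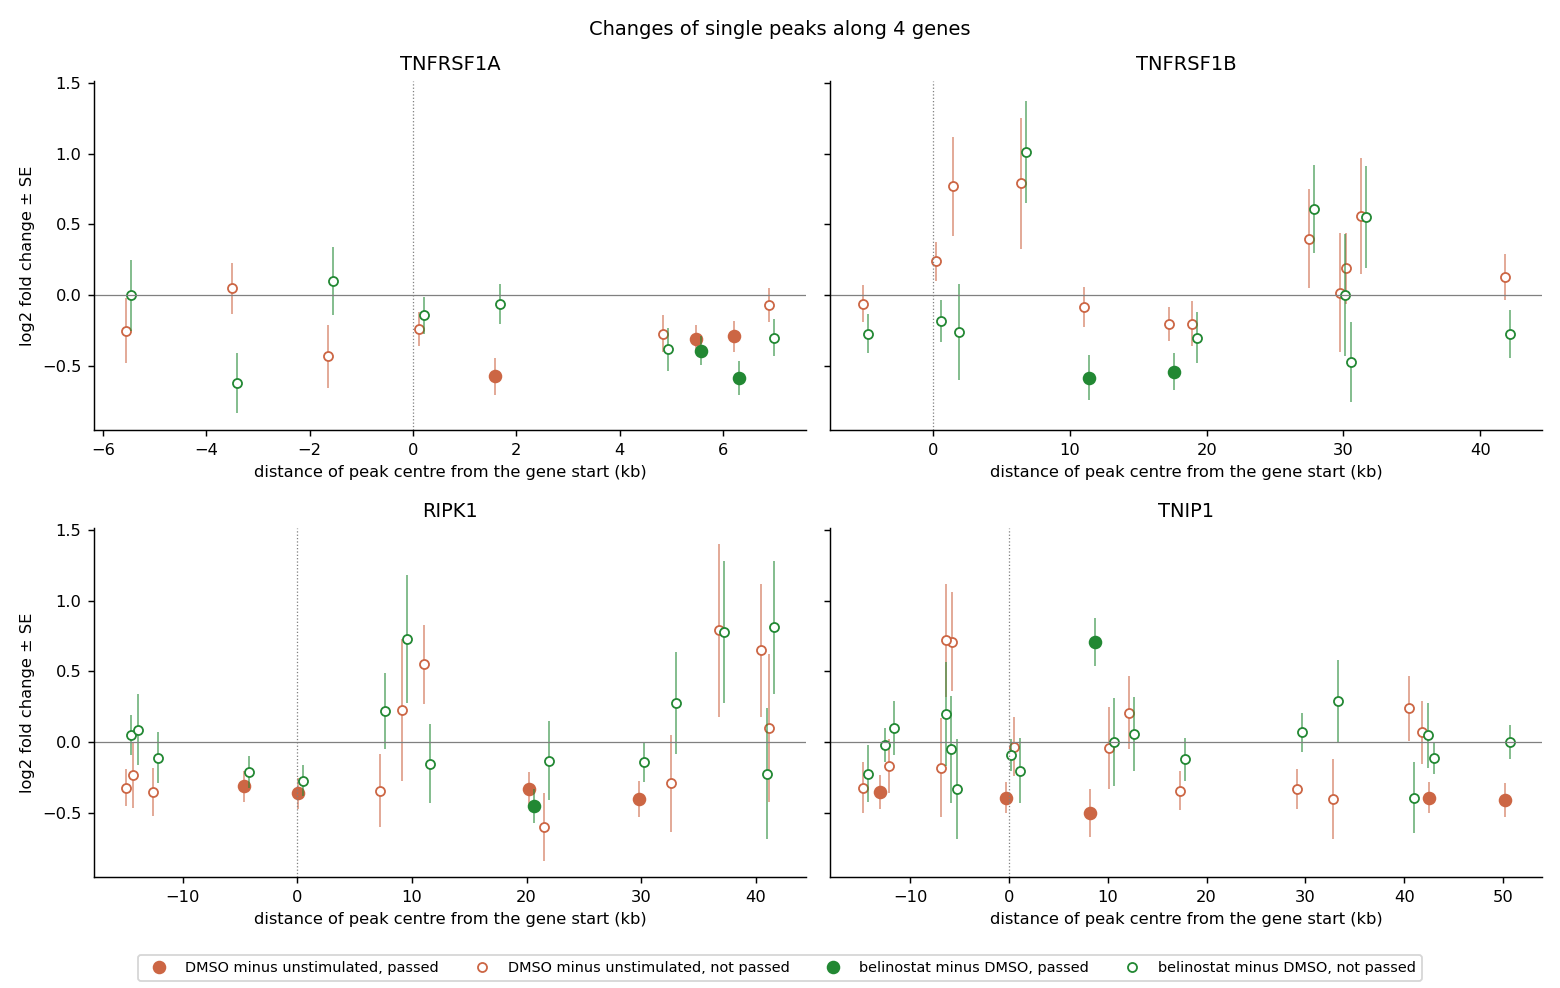
Log2 fold change ± SE (y axis) of each peak against the distance of its centre from the gene start in kb (x axis) for TNFRSF1A, TNFRSF1B, RIPK1 and TNIP1, with filled points where edgeR passed. The belinostat-DMSO falls that passed at both receptors are intron peaks, the start peaks (-0.14 and -0.18) and an upstream TNFRSF1A peak (-0.62) did not pass, and TNIP1 has 1 rise of 0.71 at 8487 bp; with loess offsets the cytokine changes of the TNFRSF1A peaks at 6256 and 5530 bp and the RIPK1 start peak turn and that of the TNIP1 start peak reaches 0.00.

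The third comparison, belinostat against unstimulated, asks what remained different after cytokines and drug together, and it shares libraries with both others. The limit on vehicle and handling given for the first comparison holds here too. Of 110 member peaks 11 opened (10.0%, against 16.8% of all peaks) and 30 closed (27.3%, against 13.7%). Of the 10 loci 0 were higher, against 12.9%, and 8 were lower (80.0%), against 66.8% of all loci (edgeR). The loci that did not pass were BIRC3 (-0.01 ± 0.14, edgeR adjusted p = 0.96) and TNFAIP2 (-0.17 ± 0.08, 0.0599). The lowest value was that of TNFRSF1A (-0.65 ± 0.07, edgeR adjusted p = 1.11e-07), followed by RIPK1 (-0.52 ± 0.09, 8.35e-06), and both did not overlap between groups. The call at TRAF1 was lost with only 3 kb upstream (-0.04, edgeR adjusted p = 0.66). With library totals 2 loci were lower and 1 higher, and with loess offsets 1 was lower and 2 higher, so most of these directions rest on the scaling.

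The largest falls among called peaks were the TNFRSF1A peak at 6256 bp (-0.87 ± 0.11, edgeR adjusted p = 3.07e-10), the RIPK1 peak at 20438 bp (-0.79 ± 0.12, 1.05e-07) and, equal in size to a TNFRSF1B peak given below, another RIPK1 peak at 21719 bp (-0.73 ± 0.25, 0.0204). The last was lost with library totals, loess offsets, DESeq2 and without unstimulated replicate 4 or belinostat replicate 6 (edgeR adjusted p 0.0919 and 0.11). At TNFRSF1A 7 of 9 peaks closed in this comparison, against 13.7% of all peaks. Strong peaks closed widely, with 15886 of 16743 in the strongest of 20 equal bins and 11464 in the next. With loess offsets, of the TNFRSF1A peaks only that at 6256 bp closed (-0.31, edgeR adjusted p = 0.00565). The largest rises were in weak peaks, the TNFRSF1B intron peak at 6583 bp (1.81 ± 0.41, edgeR adjusted p = 0.000262), a RIPK1 exon peak at 37001 bp (1.57 ± 0.56, 0.0246) and a TRAF2 intron peak at 35621 bp (1.31 ± 0.39, 0.00656). The calls at RIPK1 and TRAF2 were lost with loess offsets and TMM over the weaker peaks, that at RIPK1 also without unstimulated replicate 3 or belinostat replicate 5 or 6. The TNFRSF1B peak had -1.81, -0.73 and -0.10 in unstimulated and 0.04, 0.61 and 1.19 log2 CPM in belinostat libraries, which did not overlap although each value rests on few counts. TNF receptor 2 thus held both a peak that rose and intron peaks that fell, at 17425 bp (-0.73 ± 0.13, edgeR adjusted p = 2.22e-06) and 11221 bp (-0.66 ± 0.16, 0.000546).

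The share of all counts that fell in the 110 member peaks was 0.073 to 0.0763% in unstimulated, 0.0694 to 0.0752% in DMSO and 0.0669 to 0.0753% in belinostat libraries. Belinostat differed from unstimulated libraries (exact permutation test, two-sided p = 0.00866, adjusted over 6 tests 0.0173). The cytokine step (p = 0.0346, adjusted 0.0519) and the belinostat step (0.0563, adjusted 0.0676) by the same exact test did not pass after adjustment. Without belinostat replicate 1, whose 0.0753% lay above the other 5 belinostat libraries (0.0699% or less), the belinostat step had an unadjusted exact p of 0.00866, and without DMSO replicate 5 one of 0.0346. Leaving out 1 library took the unadjusted exact p of the cytokine step to between 0.013 and 0.0693.

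A wider list of 51 other TNF pathway genes, all with peaks, set the members in context. Between DMSO and unstimulated cells 3 loci were higher and 33 lower (5.88% and 64.7%, against 10.8% and 62.6% of all loci). The higher ones were the receptor CD40 (0.60 ± 0.15, edgeR adjusted p = 0.00114), the brake TNIP3 (0.42 ± 0.15, 0.0111) and the TRAIL receptor TNFRSF10A (0.19 ± 0.08, 0.0356). Among the lower ones were all 5 NF-kappaB genes listed, from -0.27 at NFKBIA, the inhibitor IkappaB-alpha, to -0.40 at RELA, the main activating subunit, 6 of 8 genes of the receptor complex, 5 of 8 kinases and 7 of 9 brakes. With loess offsets the counts were 5 higher and 3 lower, so these falls too depend on the scaling.

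Between belinostat and DMSO 0 of the 51 were higher and 3 lower, the kinases IKBKB (-0.35 ± 0.07, edgeR adjusted p = 0.00787) and MAP3K14 (-0.32 ± 0.07, 0.0145), which drive the canonical and the alternative NF-kappaB route, and the death receptor TNFRSF21 (-0.32 ± 0.09, 0.045). That is 5.88%, against 2.04% of all loci, both at an adjusted p. At an unadjusted p under 0.05 there were 14, and the share of all loci at that threshold was not counted. The number of lower loci ran from 1 without any of DMSO replicate 2, 3 or 6 or belinostat replicate 2 or 5 to 14 without belinostat replicate 1, and was 0 with TMM over the weaker peaks. This number also moved with the replicate number as a block. The ligand gene TNF had a value of 0.29 ± 0.22 (edgeR adjusted p = 0.438) in this comparison. It was higher in belinostat than in unstimulated libraries (0.75, edgeR adjusted p = 0.00419), as were 12.9% of all loci. The ranges overlapped, with 0.38 to 2.23 log2 CPM in unstimulated and 1.53 to 2.84 in belinostat libraries. The TNF locus held only 498 counts over all libraries. For the 51 loci, sharing of peaks with neighbouring genes was not checked, so these counts may not be TNF's alone.

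**Figure D5:**
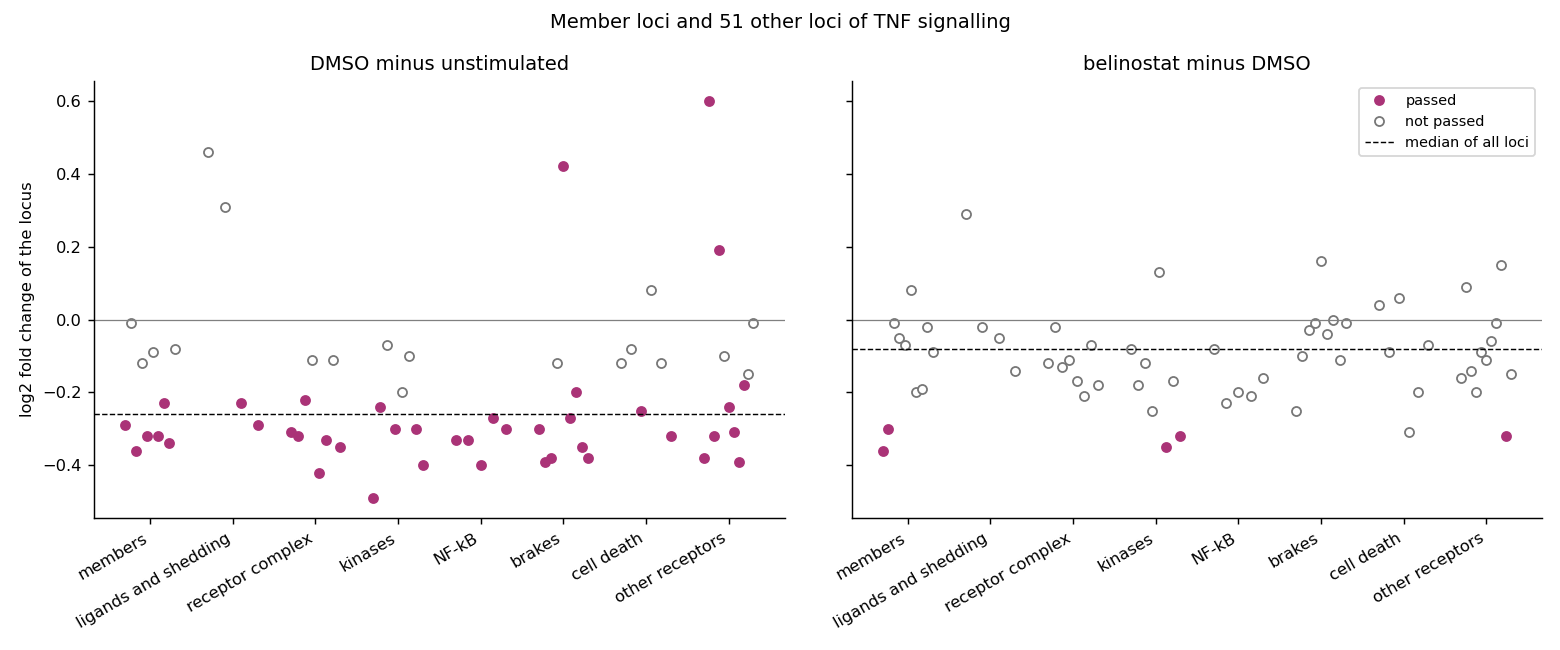
Log2 fold change (y axis) of the 10 member loci and of 51 other pathway loci in 7 groups (x axis), filled where edgeR passed, with the median of all loci as a dashed line. Left, most loci lie around the all-locus median of -0.26, which moves to -0.016 with loess offsets, and right, the loci that passed are TNFRSF1A (-0.36), TNFRSF1B (-0.30, not with loess offsets) and 3 pathway loci.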

How the data were processed

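Bulk ATAC-seq of Ccd18-Co fibroblasts was analysed in 18 libraries, 6 per group. The authors aligned reads with the ENCODE pipeline, called peaks with MACS2 and deposited 1 table of raw counts per peak for a merged peak set (hg38), with annotation by ChIPseeker 1.34.1. The deposited count values are whole numbers, not normalized, and all 18 columns were matched to samples by library number. Table starts count from 0 and are given here from 1. Peaks were assigned to genes with GENCODE 44 (1 bp overlap of the body or 10 kb upstream), and locus counts are sums over a gene's peaks. The study scaled libraries by reads in 10 kb background bins, which a peak table does not hold, so TMM factors over all peaks were used. The main test was edgeR 4.0.16 (R 4.3.3; glmQLFit with the earlier quasi-likelihood method, glmQLFTest) with 1 mean per group over all 18 libraries and Benjamini-Hochberg adjustment over all 334857 peaks or 19155 loci. SEs are the log2 fold change over the square root of F, and log2 CPM used a prior count of 2. "TMM over the weaker peaks" took factors from the peaks below the median strength. Replicates were checked for duplicates (chi-square per degree of freedom 1.02 or more, lowest z 6.03), and none was found. Library measures used exact permutation tests (SciPy 1.17.1). The fits were also run on simulated counts without a trend with peak strength. The outcome is not given here, so that run is no support for the calls. Alternatives were library totals, TMM over 10 kb bins of peak counts or the weaker peaks, loess offsets, the edgeR 4 quasi-likelihood method, DESeq2 1.42.0, average log2 CPM above 0, a replicate block, fits of 2 groups, 3 kb upstream and leaving out each library. Named were all 10 genes, each gene's start peak and smallest-p peaks, every peak called between belinostat and DMSO, the 3 largest rises and falls among called peaks of the other comparisons and the pathway list. Members and lists were chosen with earlier results of these data known. The sequences of 2 TNFRSF1A peaks are not reported here.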

Additional observations from a re-analysis of the deposited data

Results flagged for a closer look

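In 6 of the 126 groups of 6 libraries examined at member loci and peaks, 1 library stood apart from the other 5, with a gap larger, as a share of the group's range, than Dixon's 95% critical value. Chance alone gives about 1 in 20. The TNFRSF1B intron peak 11221 bp into the gene had 3.36 log2 CPM in unstimulated replicate 6, against a median of 2.99 in the others. The TRAF1 exon peak 21667 bp into the gene had -1.81 in the same library, against 0.09, with 111 counts over all libraries. The TNFRSF1A intron peak at 1633 bp had 2.72 in DMSO replicate 1, against 3.15. The TRAF1 locus had 6.39 in belinostat replicate 1, against 5.98, and the BIRC3 start peak had 2.75 in the same library, against 2.15. The RIPK1 peak at 21719 bp had -0.45 in belinostat replicate 6, against 0.89. The cause of these values was not tested.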

How the results depend on the processing

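Of 280 alternative values for the member loci between belinostat and DMSO, 270 stayed on their side of the threshold, 8 lost the call and 2 gained it, and TNFRSF1A was lost in 1, TMM over the weaker peaks. In all, 783 of 840 locus values and 2401 of 2586 peak values stayed on their side, and 47 and 49 changed sign, of which 36 and 38 were not called either way. The cause of the changes was not tested. Weak peaks rest on few counts a library, which limits what can be called there.

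Main counts were as follows: DMSO against unstimulated 4 peaks opened, 19 closed, 0 loci higher and 6 lower, belinostat against DMSO 1, 5, 0 and 2, and belinostat against unstimulated 11, 30, 0 and 8. With library totals, DMSO against unstimulated gave 10 peaks opened, 3 closed, 1 locus higher and 2 lower, and belinostat against unstimulated 28, 13, 1 and 2. With TMM over the weaker peaks the first gave 0 opened, 40 closed and 10 loci lower, belinostat against DMSO 0 opened, 0 closed and 0 loci lower, and belinostat against unstimulated 1 opened and 49 closed. With loess offsets they were 2 opened, 0 closed, 3 loci higher and 0 lower, then 3 closed and 1 lower, then 6 opened, 2 closed, 2 higher and 1 lower. DESeq2 gave 2 opened and 10 closed in the first, and a fit of 2 groups gave 1 lower locus in the second.

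Leaving out 1 library gave, for DMSO against unstimulated, 2 to 5 opened (2 without unstimulated or DMSO replicate 1), 10 to 24 closed (11 and 10 without unstimulated replicate 1 or 6) and 5 to 7 loci lower. For belinostat against DMSO it gave 2 to 6 closed (2 without DMSO replicate 6, 3 without DMSO 3 or belinostat 2, 3 or 4) and 1 to 4 loci lower (1 without DMSO 2, 3 or 6 or belinostat 3, 4 without belinostat 1). For belinostat against unstimulated it gave 7 to 15 opened (7 without belinostat 4), 26 to 33 closed and 8 to 9 loci lower.

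Values that changed sign and were called before or after did so with loess offsets unless stated. DMSO against unstimulated: the loci of TNFRSF1B 0.27 (0.20 with library totals), TRAF2 0.17, TNFAIP3 0.03 and TNFAIP2 0.19, the TNFRSF1A peaks at 6256 bp (0.09) and 5530 bp (0.13), the start peaks of BIRC2 (0.03), RIPK1 (0.03) and TNIP1 (0.00) and the RIPK1 peak at 20438 bp (0.03). Belinostat against unstimulated: the loci of TNFRSF1B 0.09, TRAF1 0.05, TRAF2 0.25 (0.13 with library totals), TNIP1 0.06 and TNFAIP2 0.22, the start peaks of TNFRSF1A (0.10), BIRC2 (0.12), TNFAIP3 (0.10) and TNIP1 (0.10), the TRAF1 peak 10872 bp upstream (0.07) and the TNIP1 peak at 42771 bp (0.06). Among the uncalled sign changes with library totals were the loci of TRAF2 (0.09), BIRC3 (0.12) and TNFAIP2 (0.13) between DMSO and unstimulated libraries, and with loess offsets the start peaks of TNFRSF1A (0.09), TNFAIP3 (0.12) and TNFAIP2 (0.08).

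Deviations of same-numbered libraries correlated from -0.045 to 0.066 between unstimulated and DMSO and from -0.198 to 0.026 between DMSO and belinostat. Between unstimulated and belinostat they correlated from -0.02 to 0.106. With the replicate number as a block, 20 peaks closed between DMSO and unstimulated libraries, and the other 11 counts equalled those above. Over all loci, belinostat against DMSO gave 57 higher and 1018 lower with the block, and 24 and 391 without it. Whether replicate numbers mark pairs of libraries is therefore not settled here.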
